A study of Mus musculus with 99 samples.

Results

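The members described here are 10 genes for T-box transcription factors: Tbx1, Tbx2, Tbx3, Tbx4, Tbx5, Tbx6, Tbx15, Tbx18, Tbx20 and Eomes. They were taken by symbol, without use of their levels, from a table of read counts for 55291 gene symbols in 99 single cells of the mouse cochlea. All 10 symbols are in the table. The first group held 32 wild-type outer hair cells (OHCs) of postnatal day 30, from C57BL/6 mice of genotype Slc26a5-CreER/+; Ai9/+. The second group held 67 converted inner hair cells (cIHCs) of postnatal day 42, from C57BL/6 mice of genotype Slc26a5-CreER/+; Rosa26Tbx2/+. Slc26a5 encodes prestin, the motor protein of OHCs, so its CreER directs recombination to OHCs, and the cIHCs are former OHCs with ectopic Tbx2. Ai9 is a Cre-dependent tdTomato reporter, and per the design text the cells of both groups carried tdTomato and were picked by hand. Age and genotype differ together, so their parts in any difference cannot be told apart, and the labels name neither the animals nor a date of recombination. Each group was therefore treated as 1 sample: the text gives levels and ratios with counting intervals, and no p-value. A further 17 OHCs that the design text mentions were not analysed here.

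T-box factors share a DNA-binding domain, the T-box, and bind variants of 1 short DNA element. Tbx2 and Tbx3 are closely related and act mostly as repressors, while Tbx5, Tbx6 and Eomes are known mainly as activators. Tbx2 and Tbx4 lie side by side in the genome, as do Tbx3 and Tbx5, an arrangement left from duplications of an ancestral pair. In the cochlea Tbx2 is known as a factor that gives inner hair cells their identity, and OHCs normally lack it. Tbx1 is known for its roles in the otocyst and the stria vascularis, and Tbx18 for its role in the otic mesenchyme that forms the fibrocytes. The comparison asks whether the relatives of Tbx2 changed in cells that were made to express it.

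Because these genes share a domain, a first point was how far reads of the abundant Tbx2 could be mistaken for reads of a relative. The following 60 bases, part of the region that encodes the T-box, are the window of the Tbx2 coding sequence that is on average best matched in the relatives compared, most of which are shown. They are bases 794 to 853 of the coding sequence in Tbx2 and span exons 3 and 4. Sequences are from GENCODE M21 transcripts (build GRCm38), and capitals mark every base that differs from Tbx2.
Tbx2: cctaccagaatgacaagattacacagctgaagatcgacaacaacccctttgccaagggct
Tbx3: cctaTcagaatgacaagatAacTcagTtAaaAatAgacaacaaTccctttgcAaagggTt
Tbx5: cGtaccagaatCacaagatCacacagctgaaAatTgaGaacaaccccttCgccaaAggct
Tbx1: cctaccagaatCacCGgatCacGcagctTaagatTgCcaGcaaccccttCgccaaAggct
Tbx6: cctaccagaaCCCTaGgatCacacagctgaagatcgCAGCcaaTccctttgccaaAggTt
Tbx18: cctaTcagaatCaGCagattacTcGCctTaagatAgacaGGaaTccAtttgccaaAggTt
Eomes: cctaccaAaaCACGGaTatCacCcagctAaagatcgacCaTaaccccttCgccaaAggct

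Even here Tbx5, the best match, differed from Tbx2 at 8 of 60 bases, Tbx3 at 10, Tbx6 at 13 and Tbx18 at 15. Over the best local alignment of the coding sequences Tbx3 matched Tbx2 at 79.1% of 869 bases. The longest run of identical bases between the 2 coding sequences was 14 for Tbx3, 12 for Tbx4, 20 for Tbx5, 18 for Tbx1 and 17 for Tbx6. The longest run with any T-box gene was 23 bases, with Tbx21, which had no read in any cell.

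Tbx2 itself separated the groups completely. The gene lies on chr11:85832551-85841948 (GRCm38, plus strand, ENSMUSG00000000093.6), with 3626 bases of exons. In the OHCs 3 cells (OHC 23, OHC 26 and OHC 28) held 1 Tbx2 read each, at most 0.123 CPM (counts per 1000000 counts of the cell), and the other OHCs held none. In the 67 cIHCs the lowest level was 113 CPM, from 779 counts in cIHC 18, the median was 584 CPM, and the highest was 2643 CPM, from 24212 counts in cIHC 44. Every cIHC was above every OHC, which holds for 0.0343% of the genes with a ratio, and no member had every cIHC below every OHC, as 0.0386% of those genes did. The summed cells gave 731 CPM in cIHCs (95% Poisson interval 728 to 733) and 3 counts in OHCs. The log2 ratio of the summed levels was 15.85 (95% interval 14.30 to 18.13, counting error only), and the 3 OHC counts set its width. The table counts reads per gene, so transcripts of the Rosa26 allele and of the endogenous gene cannot be told apart.

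**Figure D1:**
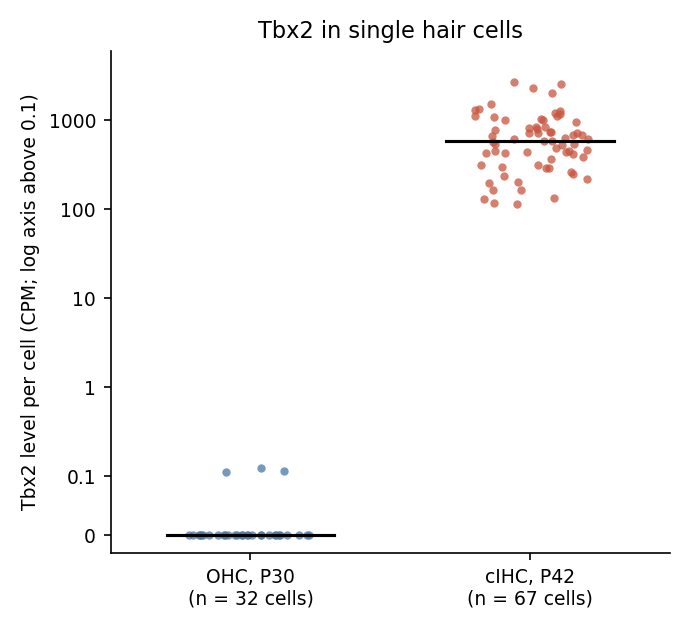
Tbx2 level of each cell (points) in CPM, on an axis that is linear below 0.1 and logarithmic above, for 32 OHCs and 67 cIHCs, with the group median as a black line. The cIHCs lie between 113 and 2643 CPM, and the OHCs at 0 or, in 3 cells, near 0.1 CPM.

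Within the cIHCs the Tbx2 level spanned 23.4-fold from the lowest to the highest cell. The quartiles were 341 and 893 CPM, and the mean over cells was 713 ± 543 CPM (SD, n = 67 cells). All 67 cells exceeded 100 CPM and 16 exceeded 1000 CPM. No single cell carried the sum: cIHC 44, the highest, held 6.09% of the counts. In the 55 cIHCs with at least 10 CPM of Xist and no Y-linked gene at 10 CPM (cells with Xist reads) the median was 607 CPM (113 to 2643), and in the 12 with the reverse (cells with Y-linked reads) it was 445 CPM (261 to 2024), so the ranges overlap. Of the OHCs 4 had Xist reads and 24 Y-linked reads by the same rule, so the sexes were unequally represented in the groups. By title, the cIHCs with Y-linked reads are cIHC 1 to cIHC 12 and those with Xist reads cIHC 13 to cIHC 67.

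Per kilobase of exons, Tbx2 reached 201.5 CPM in cIHCs, rank 246 of 23631 genes with reads and a matched length. In OHCs its level was 0.0034 CPM per kilobase, at rank 17359 of 19309. Levels per kilobase put the 17 mouse T-box genes considered (the 10 members, Tbx10, Tbx19, Tbx21, Tbx22, Tbr1, T and Mga) in this order in cIHCs: Tbx2, Mga at 5.87, Tbx6 at 1.68, Tbx1 at 0.308, Tbx18 at 0.201, Tbr1 at 0.0818 and Eomes at 0.0040 CPM per kilobase. None of the counting intervals of the first 6 overlapped with the next in the order. These intervals cover counting error and not the spread over cells, and most cIHC counts of Tbx1, Tbx18 and Tbr1 were in 1 cell each. In OHCs the order was Mga at 6.999, Tbx6 at 3.53, Tbr1 at 0.234, Tbx2 at 0.0034 and Tbx18 at 0.00088 CPM per kilobase, and the intervals of Tbx2 and Tbx18 overlapped. Thus the leading T-box gene was Mga in OHCs and Tbx2 in cIHCs. The order was the same per kilobase of coding sequence.

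**Figure D2:**
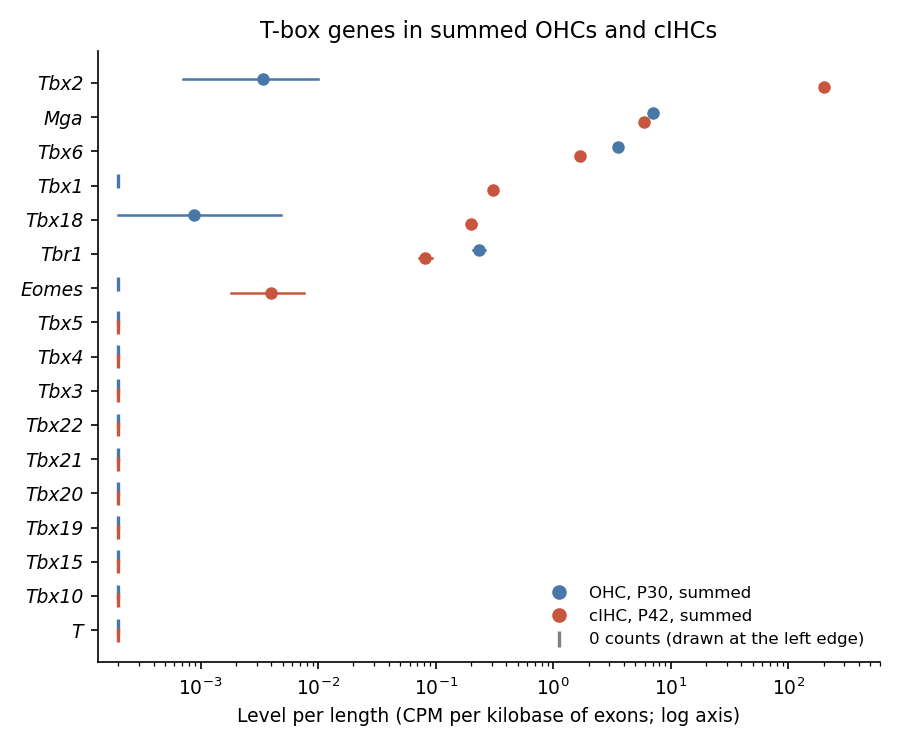
Level of 17 T-box genes in the summed OHCs (blue) and summed cIHCs (red), in CPM per kilobase of exons on a log axis, with 95% Poisson intervals as lines and genes with 0 counts as ticks at the left edge. Tbx2 is at 201.5 in cIHCs and 0.0034 in OHCs, and 10 of the 17 genes have no read in either group.

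Of the 10 members, 5 had no read in any of the 99 cells: Tbx3, Tbx4, Tbx5, Tbx15 and Tbx20. Tbx3 (chr5:119670669-119684724) is the closest relative of Tbx2 in function, Tbx4 (chr11:85886422-85916097) its genomic neighbour, and Tbx5 (chr5:119832668-119885219) the limb and heart factor beside Tbx3. Tbx15 (chr3:99240381-99354259) and Tbx20 (chr9:24718138-24774303) are known from skin and skeleton and from the heart. A count of 0 allows 3 counts over a group, 0.0124 CPM in the summed OHCs and 0.0055 CPM in the summed cIHCs. With 3 cells as the limit that 0 cells allow, the share of cells with reads could be up to 9.38% of OHCs and 4.48% of cIHCs. These relatives were thus not detected at this depth, beside a Tbx2 sum of 397488 counts in the same cIHCs.

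The remaining 5 members had more than 3 counts in 1 or both summed groups and so had a ratio. Tbx1, Tbx2 and Tbx18 were at least 2-fold higher in cIHCs, Tbx6 at least 2-fold lower, and Eomes within 2-fold. Among all 23306 genes with a ratio, 60.8% passed 2-fold in either direction, 42.0% higher and 18.8% lower, so a 2-fold difference was common in these summed cells, and 5 members are too few to set against it. Only Tbx2 reached 10 CPM in a group, where 40.5% of 10041 genes passed 2-fold. The median log2 ratio of all genes was 0.56, and 0.25 for those with at least 10 CPM. Scaling by TMM, which trims extreme genes, lowered every log2 ratio by 0.19.

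Tbx1 (chr16:18580979-18590671, minus strand) had 0 counts in the OHCs and 589 in the cIHCs, all of them in 1 cell, cIHC 49, at 65.4 CPM. The other 66 cIHCs had none. The summed level of 1.08 CPM was at least 6.45 higher on the log2 scale, against a floor of 3 counts over the OHCs, and this difference is that of the single cell.

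Tbx18 (chr9:87702800-87731260, minus strand) had 1 count in OHC 10 and 516 counts in 2 cIHCs. Of these, 451 counts (87.4%) were in cIHC 49, at 50.1 CPM, and 65 were in cIHC 33, at 8.58 CPM. The log2 ratio of its CPM was 7.84 (95% interval 5.36 to 13.15). Against the floor of 3 counts it was 6.26, and 3.29 without cIHC 49. The lncRNA D030062O11Rik, which overlaps Tbx18 on the other strand, had no read in either group.

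Eomes (chr9:118478212-118486132, plus strand), a regulator of early lineages and cortical progenitors, had 9 counts, all again in cIHC 49 (1.00 CPM). Against the floor its log2 ratio was 0.42, within 2-fold, and the counting interval of the ratio reached down to -0.19, so no difference was detectable. Gm33460, which overlaps Eomes on the other strand, had 78 counts, all in the same cell. The strand setting is not given in the sources used here, so reads of the pair may not be separable.

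The cell that held all reads of Tbx1 and Eomes and most of Tbx18 stood apart in other genes. With 9001629 counts it had reads of 10859 genes, the second highest number of the cIHCs, and 155 genes with at least 20 counts that no other cIHC held. The next highest cell had 67 such genes. Its Tbx2 level, 129 CPM, ranked 65th of 67. The sum of 6 hair cell markers (Myo7a and Myo6 among them) was 2978 CPM, the lowest of the cIHCs (median 7680 CPM), with Gfi1 at 0. The sum of 9 inner hair cell markers was 4262 CPM, rank 66 of 67 (median 12612 CPM). Otof was at 431 CPM, below its cIHC median, as were Slc17a8, Calb2, Cabp2, Atp2a3 and Shtn1. Rprm (420 CPM, median 27.1 CPM) and Slc7a14 (120 CPM, median 69.5 CPM) were above theirs, and Fgf8 was at 0.

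In contrast, cIHC 49 had the highest sums of the lists for 4 other cell types. The supporting cell list summed to 900 CPM, with 170 CPM in the next cell and a median of 0.396 CPM. Of its 10 genes 5 had reads, led by the connexins Gjb6 (388 CPM) and Gjb2 (294 CPM), while Sox2, Sox10, Epyc, Otog and Fgfr3 were at 0. The mesenchyme and fibrocyte list summed to 1146 CPM, with 163 CPM in the next cell. Of its 9 genes 5 had reads, among them the otic mesenchyme factor Pou3f4 (95.1 CPM, and 0 in every other cIHC), Col1a2 and Coch, while Col3a1, Lum, Otos and Postn were at 0. The pericyte list summed to 66.7 CPM from Pdgfrb alone, with Rgs5, Kcnj8, Notch3 and Acta2 at 0, and the glia list to 274 CPM from S100b alone. The 6 T and NK cell genes were all at 0, as in every cIHC. The blood and macrophage sum was 27.2 CPM, from C1qb alone (rank 29 of 67), and the melanocyte and stria sum 1.67 CPM (rank 7). The spiral ganglion neuron sum was 664 CPM (rank 47). Of its genes Nefm was at 461 CPM, with 419 CPM in the next cell, while Tubb3, Nefh and Prph were at 0. The part of these transcripts in the Tbx1, Tbx18 and Eomes reads was not tested.

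The other Tbx18 cell, cIHC 33, had reads of 11719 genes, the most of any cIHC, with 1 supporting cell gene with reads (0.396 CPM), a mesenchyme sum of 5.81 CPM and a hair cell sum of 8533 CPM, above the group median. Its pericyte sum of 2.90 CPM ranked 3 of 67 cIHCs and its blood and macrophage sum of 157 CPM ranked 8 of 67. The part of these transcripts in its Tbx18 reads was not tested. Among the OHCs, OHC 22 had the highest supporting cell and mesenchyme sums, 968 and 1315 CPM, and no read of any of the 10 members. In it 5 supporting cell genes and 2 mesenchyme genes had reads, and Pou3f4 was at 0. Its hair cell sum was 7993 CPM, and its sum of 8 OHC markers, 26330 CPM, was the lowest of the OHCs (median 53190 CPM). Without cIHC 49, 3 members were past 2-fold in place of 4, and the Tbx2 log2 ratio was 15.87. Without OHC 22 there were 4, and the Tbx2 log2 ratio was 15.81.

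**Figure D3:**
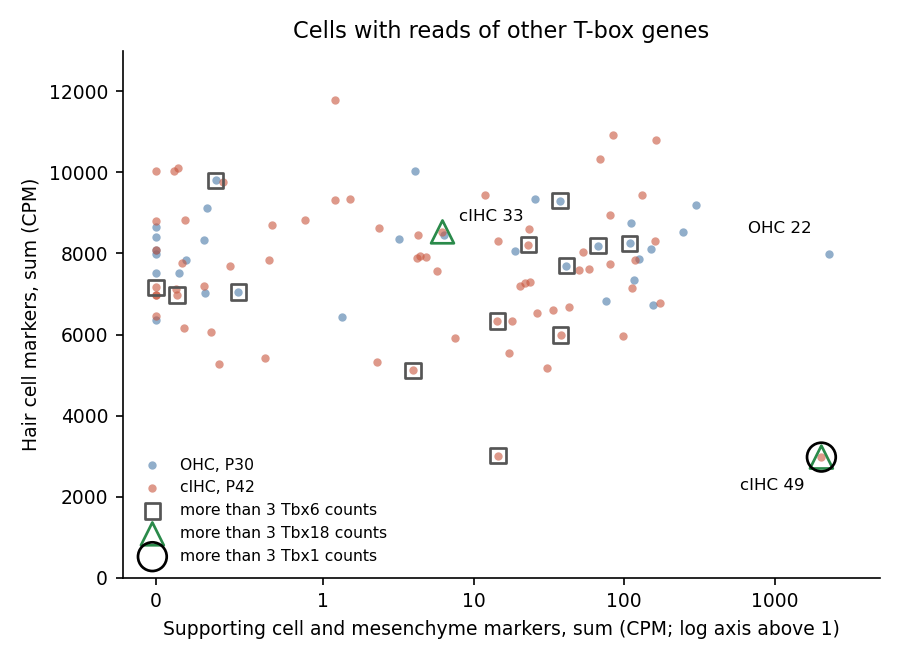
Sum of hair cell markers (vertical axis, CPM) against the sum of supporting cell and mesenchyme markers (horizontal axis, CPM, logarithmic above 1) for each OHC (blue) and cIHC (red), with open symbols around cells with more than 3 counts of Tbx6 (squares), Tbx18 (triangles) or Tbx1 (circle). cIHC 49, the Tbx1 cell, lies at the right and lowest. Of the 13 Tbx6 cells, cIHC 11 lies nearly as low, at 3015 CPM, and the rest lie among the other cells.

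Tbx6 (chr7:126781483-126785560, plus strand), known for its role in the paraxial mesoderm, was the only member with reads in several cells of both groups. Of the OHCs 7 of 32 had reads (21.9%, exact binomial interval 9.28 to 39.97%). The levels were 71.8 CPM in OHC 4, 40.8 in OHC 24, 31.4 in OHC 8, 18.4 in OHC 28, 16.02 in OHC 27, 11.3 in OHC 9 and 0.284 CPM in OHC 32. Of the cIHCs 7 of 67 had reads (10.4%, interval 4.30 to 20.3%). The levels were 57.3 CPM in cIHC 10, 53.4 in cIHC 6, 29.1 in cIHC 11, 28.5 in cIHC 5, 26.95 in cIHC 4, 22.3 in cIHC 16 and 19.4 CPM in cIHC 35. The groups overlap, most cells of both were at 0, and the intervals of the 2 shares overlap. Among cells with reads the median was 18.4 CPM for OHCs and 28.5 CPM for cIHCs.

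The summed Tbx6 level was 6.36 CPM in OHCs (6.05 to 6.69) and 3.02 CPM in cIHCs (2.88 to 3.17), so the log2 ratio was -1.07 (-1.18 to -0.97). In 70.0% of the 2144 pairs of 1 cIHC and 1 OHC the levels were tied, and in 9.65% the cIHC was higher. The lower sum was no longer past 2-fold as a mean of CPM per cell (-0.75), without the highest cell of each group (-0.76) or in thinned cells (-0.83). Of the 7 Tbx6 cIHCs 5 were among the 12 cIHCs with Y-linked reads, which held 1331 of the 1644 counts. Within the cells with Y-linked reads the log2 ratio was 1.41, higher in cIHCs, and within those with Xist reads, of which 1 of 4 OHCs had Tbx6, it was -2.59. The difference between the summed groups thus did not hold within both kinds of cells. None of the 7 Tbx6 cIHCs was cIHC 49. In them the supporting cell sum was at most 22.3 CPM and the mesenchyme sum at most 37.9 CPM. Their hair cell sum ranged from 3015 CPM in cIHC 11, the lowest of the cIHCs after cIHC 49, to 8219 CPM. cIHC 11 also had the second highest blood and macrophage sum of the cIHCs, 298 CPM. In the 7 Tbx6 OHCs the supporting cell sum was at most 41.4 CPM and the mesenchyme sum at most 108 CPM. OHC 4, with the highest Tbx6 level, had the highest glia sum of the OHCs, 283 CPM. The Tbx6 cIHCs had Tbx2 levels from 286 CPM in cIHC 4 to 2024 CPM in cIHC 11, a span that covers much of the group.

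Beyond the members, 7 further T-box genes were followed. Tbx10, Tbx19, Tbx21, Tbx22 and T, the founding gene of the family, had no read in any cell. Mga, a large protein with both a T-box and a Max-binding domain that acts in repressive complexes, was broadly present. It had reads in 25 of 32 OHCs, with a median of 67.5 CPM and a highest value of 468 CPM, and in 66 of 67 cIHCs, with a median of 78.5 CPM and a highest value of 326 CPM. The cells overlap throughout, and a cIHC was above an OHC in 53.8% of pairs. The summed levels were 107 and 90.05 CPM, a log2 ratio of -0.25, within 2-fold.

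Tbr1, the relative of Eomes known from cortical neurons, resembled Tbx1 in resting on single cells. OHC 17 held 302 of 311 OHC counts (46.02 CPM), and cIHC 11 held 239 of 244 cIHC counts (35.3 CPM). The log2 ratio was -1.52 (-1.77 to -1.27), and it was 3.58 when cells with few genes, OHC 17 among them, were left out. It was also higher in cIHCs, at 0.80, among the cells with Y-linked reads, which held all 311 OHC counts and 239 of the cIHC counts.

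The genes that neighbour the pairs Tbx2 and Tbx4, and Tbx3 and Tbx5, gave no joint pattern. Of 10 annotated neighbours 6 are in the table, all lncRNAs or pseudogenes. Gm11443, Gm16063, Gm16064 and Tbx3os2 had no read. Bcas3os2, beside Tbx2, had 188 counts in OHCs and 71 in cIHCs (log2 ratio -2.57), but 92.6% of the OHC counts were in OHC 2, and the ratio was 0.047 without the highest cell of each group. 2610027K06Rik had 2 counts in OHCs and 180 in cIHCs, 99.4% of them in cIHC 27, a log2 ratio of 5.32 (3.45 to 8.38). It overlaps Bcas3, so its reads may belong to that gene.

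The Rosa26 locus, where the Tbx2 allele resides, was read from 3 genes. The OHC genotype holds Ai9 and the cIHC genotype the Tbx2 allele, and the part of either in the ratios below was not tested. Gt(ROSA)26Sor, the noncoding transcript whose promoter is widely used to drive transgenes, had reads in 27 of 32 OHCs and 67 of 67 cIHCs. Summed OHCs had 91.9 CPM and summed cIHCs 303 CPM, which gives a log2 ratio of 1.72 (1.70 to 1.74), between 1.38 and 2.26 under the alternatives tried. Its antisense partner Thumpd3 had a log2 ratio of 0.78, at 30.8 CPM in cIHCs, within 2-fold, but between -0.36 in the cells with Y-linked reads and 5.99 in those with Xist reads. The flanking Setd5 had one of 0.81 (80.3 and 140.5 CPM), also within 2-fold, but 1.09 without OHC 22, and between -0.49 in the cells with Xist reads and 2.43 as a median of CPM per cell. Among cIHCs the rank correlation of Gt(ROSA)26Sor with Tbx2 was 0.33 over 67 cells. The cells differ in depth, with which Tbx2 correlated at 0.32, and the value is a description only.

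Of 12 chromatin and other partners known for Tbx2 or Tbx3 all had a ratio: 4 were at least 2-fold higher in cIHCs, 0 lower and 8 within 2-fold, with a median log2 ratio of 0.64 beside 0.56 for all genes. Over all genes 60.8% were past 2-fold (42.0% higher and 18.8% lower), and 40.5% of those with at least 10 CPM, which 11 of the 12 partners reached. At that level 3 partners were higher and 0 lower, beside 26.3% and 14.3% of all such genes. The medians there were 0.63 for the partners and 0.25 for all such genes. Among these 11 the genes with the lowest ratios were Cbx3, a heterochromatin protein (35.1 and 33.9 CPM, -0.05), Rbbp4, a histone-binding subunit (232 and 305 CPM, 0.40), and the deacetylase Hdac1 (85.6 and 118 CPM, 0.46). Hdac1 had reads in 19 of 32 OHCs and 65 of 67 cIHCs. Its ratio was 9.49 as a median of CPM per cell and 1.24 in the cells with Xist reads, and within 2-fold under the other alternatives tried. The highest of the 11 was Cbx5, heterochromatin protein 1 alpha. It had reads in 8 of 32 OHCs and in 67 of 67 cIHCs, with summed levels of 7.44 and 236 CPM and a log2 ratio of 4.99 (4.92 to 5.06). Egr1, an immediate early factor, was at 19.4 and 376 CPM (4.28), with 98.4% of its OHC counts in OHC 22. The corepressor Trim28 was at 47.8 and 99.3 CPM, a ratio of 1.06 that TMM scaling brought under 2-fold.

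Of 11 genes known as repression targets of Tbx2 or Tbx3, 8 had a ratio: 5 were at least 2-fold higher in cIHCs, 1 lower and 2 within 2-fold, beside 42.0% higher and 18.8% lower over all genes. Their median log2 ratio was 2.32 beside 0.56 for all genes, but only 2 reached 10 CPM, Cdkn1a among them. Cdkn1a, the cell cycle inhibitor p21, had reads in 9 of 32 OHCs and 32 of 67 cIHCs. Summed OHCs had 16.3 CPM of it and summed cIHCs 77.2 CPM, for a log2 ratio of 2.24 (2.19 to 2.29), between 1.12 and 3.12 under the alternatives tried. In GENCODE M21 it overlaps AC167363.2. The 1 lower gene was Cdh1, the epithelial cadherin, named after its values were seen. All 692 of its OHC counts were in OHC 22, the cell with the highest supporting cell and mesenchyme sums.

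BMP signalling is a known inducer of Tbx2 and Tbx3 in several tissues. Of 12 listed genes of the pathway 11 had a ratio, and 5 were at least 2-fold higher, 2 lower and 4 within 2-fold. Over all genes 42.0% were higher and 18.8% lower. Their median log2 ratio was 0.82 beside 0.56 for all genes. Of the 10 that reached 10 CPM 4 were higher and 2 lower, beside 26.3% and 14.3% of all genes at that level. The medians there were 0.61 for the list and 0.25 for all such genes, and the list is short. The ligand Bmp7 was lower in cIHCs, at 7.71 CPM against 42.2 CPM in OHCs (log2 ratio -2.45, -2.50 to -2.40), with reads in 17 of 32 and 16 of 67 cells. Of the receptors, Bmpr1b was higher (7.99 and 47.7 CPM, 2.58, in 6 of 32 and 55 of 67 cells), while Bmpr2 was at 70.7 and 57.3 CPM (-0.30). The Bmpr2 ratio was -1.39, past 2-fold, in the cells with Xist reads, and -0.11 without OHC 22. The signal transducer Smad5 was at 23.95 and 10.4 CPM (-1.21), but its ratio was 1.94, in the other direction, in the cells with Xist reads. It had reads in 8 of 32 OHCs and 28 of 67 cIHCs. A cIHC was above an OHC in 34.4% of pairs, and 43.7% were tied. The other 2 listed Smad genes are named after their values were seen. Smad1 was higher in cIHCs (13.5 and 63.6 CPM, 2.24), and Smad4 was within 2-fold (0.41).

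The direct BMP target genes of the Id family, which encode inhibitors of bHLH factors, differed among themselves. Id1 had 2 counts in the OHCs and 136.7 CPM in the cIHCs, with reads in 2 of 32 and 50 of 67 cells. The log2 ratio of its CPM was 14.01 (12.16 to 17.06). Id3 was at 34.3 and 352 CPM (3.36, 3.33 to 3.39), in 10 of 32 and 60 of 67 cells, and its ratio was 0.83, within 2-fold, in the cells with Y-linked reads. Id2, named after its values were seen, was at 190 and 210.2 CPM (0.14).

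**Figure D4:**
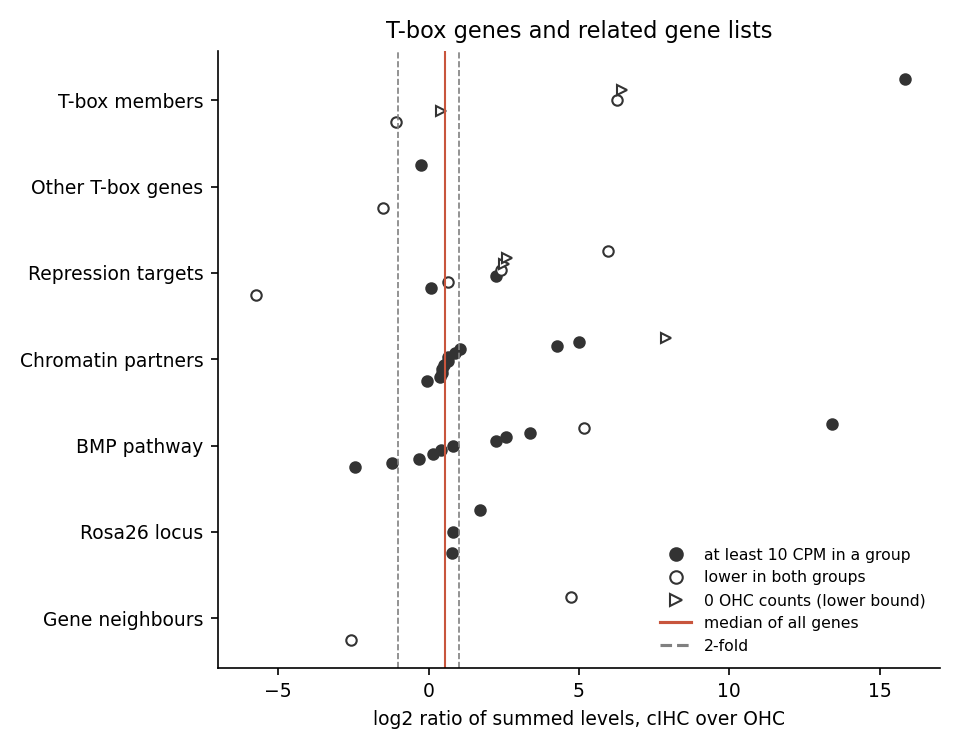
Log2 ratio of summed levels, cIHC over OHC, for the T-box members and related gene lists, with filled points for genes with at least 10 CPM in a group, open points for lower genes and triangles for lower bounds where OHCs had 0 counts. The red line marks the median of all genes (0.56) and the dashed lines 2-fold, and Tbx2 lies farthest right at 15.85.

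The T-box element was looked up in promoters as the letters TCACACCT on either strand, from 250 bases before to 50 bases after the gene start in the RefSeq table (GRCm38.p6). It was in 1.48% of all 27025 promoters of the table. Among genes with a ratio and a promoter in the table the share was 1.09% of those at least 2-fold higher in cIHCs, 1.48% of those lower and 1.14% of those within 2-fold. For such genes with at least 10 CPM the shares were 0.631%, 1.47% and 0.924%. The 6 members with a promoter in the table held 0 such matches. Of the 8 repression targets with a promoter 2 held one, shown here with the match in capitals.
Nppa, chr4:148000472-148000501, plus strand, from 250 bases before the start: TCACACCTttgaagtgggggcctcttgagg
Cdkn1a, chr17:29093771-29093800, plus strand, match on the opposite strand and 14 to 21 bases after the start: cagcagccgagAGGTGTGAgccgccgcggt

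Nppa, the atrial natriuretic peptide gene, had 0 counts in OHCs and 41 counts in 3 cIHCs, so its match stands beside a gene hardly detected here. Cdkn1a is the target described above, higher in cIHCs. A match describes letters only, and binding was not measured.

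Finally, the genes most like Tbx2 across the 67 cIHCs were ranked among 4854 genes by Spearman correlation of their CPM. The highest were the pseudogene Gm6831 (0.59), Igfbp5, an IGF-binding protein (0.58), Calb1, the calcium buffer calbindin (0.58), Acadm, a mitochondrial acyl-CoA dehydrogenase (0.57), and Tmem59 (0.56), which overlaps Tceanc2. The median over all 4854 genes was 0.04, with the 5th to 95th percentile from -0.30 to 0.32. The most opposite were Slc1a5, a glutamine transporter (-0.70), Gpx2, a glutathione peroxidase (-0.69), the mitochondrial ribosomal RNAs mt-Rnr2 (-0.68) and mt-Rnr1 (-0.67), and Tmcc2 (-0.65), which overlaps Gm15849. Among cIHCs the correlation of Tbx2 was -0.61 with the mitochondrial share of counts and 0.30 with the number of genes detected, so these cells differ in more than Tbx2. By Pearson correlation of log values 2 of the 5 highest and 4 of the 5 lowest genes stayed among the first 5. By Spearman correlation over the 55 cIHCs with Xist reads, 2 of the 5 highest and 4 of the 5 lowest stayed.

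The Spearman correlation of Tbx2 with marker sums over the 67 cIHCs was -0.37 for 9 inner hair cell markers, -0.31 for 6 hair cell markers and -0.14 for 8 OHC markers. As a check of the labels, the inner hair cell sum ranged from 1062 to 4732 CPM in OHCs and from 4099 to 20523 CPM in cIHCs, and the OHC sum from 26330 to 73457 CPM in OHCs and from 248 to 5173 CPM in cIHCs.

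**Figure D5:**
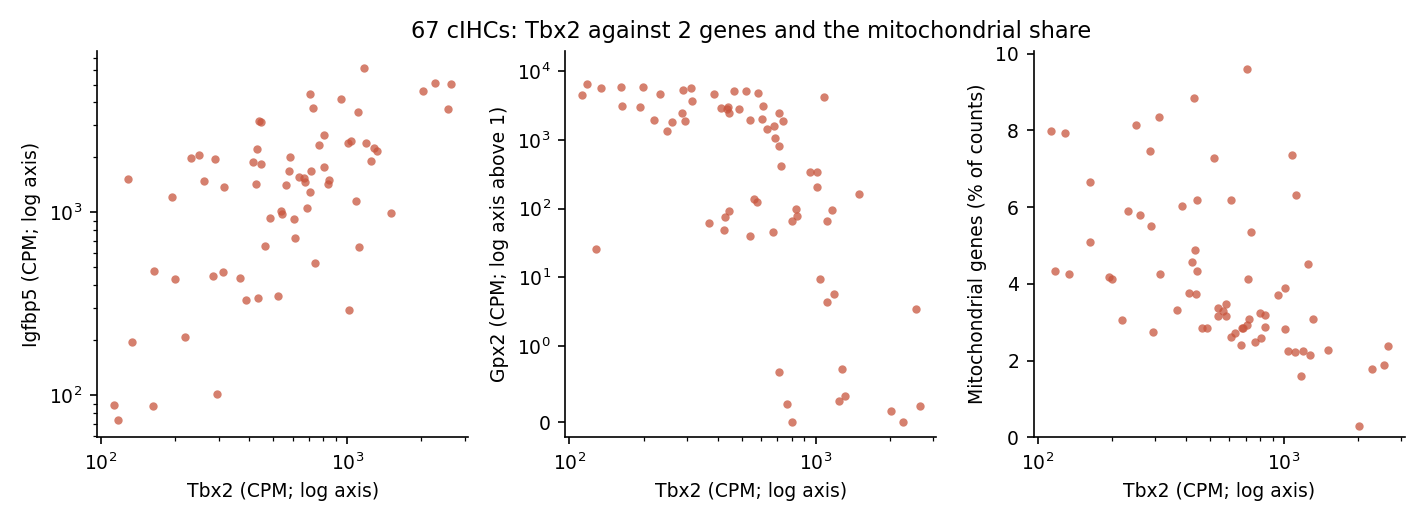
Tbx2 level (CPM, log axis) of each of the 67 cIHCs against Igfbp5 (CPM, log axis; Spearman correlation 0.58), Gpx2 (CPM, logarithmic above 1; -0.69) and the mitochondrial share of counts (%; -0.61). Igfbp5 slopes upward with Tbx2, and Gpx2 and the mitochondrial share slope downward, with wide scatter.

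The depth behind these values was 242054710 counts in OHCs and 544012348 in cIHCs, from 5656512 to 9287413 counts per OHC and from 4677682 to 13792672 per cIHC. The median number of genes with reads was lower in OHCs, 6068.5 against 8546 per cell. Detection of Tbx6 after thinning to 5880000 counts per cell was 7 of 29 OHCs and 7 of 65 cIHCs.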

How the data were processed

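The authors deposited 1 table of whole-number read counts per gene symbol and cell, unnormalised as judged from its values. HISAT2 2.2.1, StringTie 2.2.1, featureCounts 2.0.1 and build mm10 are named per the submitters' processing notes; annotation and strand setting are not given in the sources used here. Libraries were full-length Smart-Seq HT cDNA without molecular identifiers, per the labels' protocols, so intervals and floors cover counting error only. Reads of overlapping or near-identical genes may be split or shared.

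Columns were matched to cells by title. Where the shared protocol text names other cell kinds (endogenous IHCs, iOHCs), titles took precedence. No cell was left out, no pair of columns was identical, and the most alike pair differed by a chi-square of 416 (OHCs) or 183 (cIHCs) for each degree of freedom. Counts were summed per group and divided by the total (CPM). Intervals (95%) are exact Poisson, exact conditional binomial for ratios and Clopper-Pearson for shares of cells. A gene had a ratio where a sum exceeded 3 counts, and sums under 3 were set to 3 for bounds, calls and medians. A call is a 2-fold difference.

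Members and lists were chosen with earlier results of these data known. All T-box, Rosa26 and neighbouring genes are named. Of the other lists the 3 highest and 3 lowest ratios with at least 10 CPM are named except 1 gene that is not reported here, and of the correlations the 5 highest and 5 lowest among genes that reached 10 CPM in cIHCs and were read in 75% of them. Exon lengths and overlaps are from GENCODE M21, which matched 96.2% of symbols. The ratio step was tested on simulated data for genes with at least 10 CPM over all cells. Of the members only Tbx2 reached that level, and no simulated gene had an OHC sum as low as its 3 counts. The test therefore covers the ratio of no member. Python 3.11.15 (numpy 2.4.6, pandas 2.3.3, scipy 1.17.1, biopython 1.88, matplotlib 3.10.9) was used, and edgeR 4.0.16 in R 4.3.3 for TMM factors.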

Additional observations from a re-analysis of the deposited data

How the results depend on the processing

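The Tbx2 log2 ratio stayed between 12.78 and 15.87, and its lowest value, 12.78, came from the cells with Xist reads, where only 4 OHCs, none with a Tbx2 read, set the floor. Leaving out cIHC 49 or OHC 22, chosen after seeing the data, gave 15.81 to 15.87, and 3 to 4 members past 2-fold. The count of 4 members past 2-fold was 2 without the highest cell of each gene, 2 in the cells with Y-linked reads, 5 in those with Xist reads, and 1 with a minimum of 10 CPM. Among ratios past 2-fold, those that changed sign were Tbx6 at 1.41 and Tbr1 at 0.80 in cells with Y-linked reads, Tbr1 at 3.58 without cells with few genes, Smad5 at 1.94 in cells with Xist reads, and Bcas3os2 at 0.047 without the highest cell. At 3.58 for Tbr1 and 0.047 for Bcas3os2 the alternative had removed the cell with most OHC counts, and for the others the cause was not tested. Ratios within 2-fold changed sign for Setd5 (-0.49) in cells with Xist reads and Thumpd3 (-0.36) in cells with Y-linked reads, among others. So did Bmpr2 (0.81), Mga (0.22) and Cbx3 (0.73) by the median of CPM per cell. The Eomes ratio was -2.42 in the cells with Xist reads. It was set by the floor of 3 counts over 4 OHCs without an Eomes read, so it shows no lower level in cIHCs. Eomes is counted among the 5 members past 2-fold in those cells. The median of CPM per cell gave no ratio for Tbx2, whose OHC median is 0. No paired analysis was possible because a title number names a different cell in each group and no ratio here comes from a test. Depth limits the undetected members to 0.0124 (OHCs) and 0.0055 CPM (cIHCs).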

Other observations

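Tbx2 was 1 of 8 genes for which the lowest cIHC was above the highest OHC. They are listed here after their values were seen. Of the other genes, 2210017I01Rik, Lce6a, Ptprz1, Slc10a7, Tpbgl and Zyx were at 0 counts in all 32 OHCs, and for 5 of the 8 the lowest cIHC was under 1 CPM. The annotation is not given in the sources used here, and whether both groups were counted on the same one was not tested. Their summed levels in cIHCs were 576 CPM for 2210017I01Rik, 750 CPM for Lce6a, 330 CPM for Ptprz1, 512 CPM for Slc10a7, 302 CPM for Tpbgl and 161 CPM for Zyx. Atp2a3, a calcium pump gene on the inner hair cell list, was at 8.62 CPM in OHCs and 1310 CPM in cIHCs.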
